A study of Mus musculus with 8 samples.

Results

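The Slc25 genes encode the mitochondrial carrier family. All loci of the deposited gene table with a symbol made of Slc25a and a number were taken, which gave 44 of the 23100 listed loci. Cuffdiff tested 37 of them, among 12133 genes tested in all. RNA came from the cardiac ventricles of mice aged 4.5 months, with the atria removed. The 4 DKO mice were Sox5fl/fl, Sox6fl/fl and aMHC-Cre pos, and the 4 Ctrl mice were Sox5fl/fl, Sox6fl/fl and aMHC-Cre neg, so both genotypes carried the loxP-flanked alleles of these SoxD transcription factor genes. The aMHC promoter drives Cre in cardiomyocytes, and the other cells of the ventricle keep the floxed genes. Ctrl mice had no Cre, so the presence of Cre and the loss of the targeted genes cannot be told apart. Each level below is the authors' FPKM (fragments per unit of transcript length and of mapped reads), 1 value for the animals of a genotype together. No value per animal and no error was at hand, so each difference is weighed only by the authors' Cuffdiff q-value, and a gene is called here at a q of at most 0.05. Log2 ratios are of DKO over Ctrl FPKM. The depth of the libraries is unknown. The p-values come from the authors' Cuffdiff model, whose settings are not known here, so the spread between animals behind them could not be checked.

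The targeted gene Sox6 was at 1.69 FPKM in DKO and 3.39 FPKM in Ctrl (q = 0.00158 in the authors' deposited table), while Sox5, at 0.497 FPKM in DKO and 0.369 FPKM in Ctrl, was not tested. Ventricular cardiomyocyte markers were abundant in both genotypes, with Myl2 at 17014 FPKM in DKO and 20639 FPKM in Ctrl, and of the atrial markers Myl7 and Sln were each under 0.4 FPKM, while Myl4 was at 3.58 FPKM in DKO and 3.69 FPKM in Ctrl. Of the brown fat markers, Ucp1 was listed at 0 in both, Adipoq was at 0.0394 FPKM in DKO and 0.0240 FPKM in Ctrl, and Cidea was at 37.8 FPKM in DKO and 35.2 FPKM in Ctrl. The hepatocyte gene Alb was at 0 FPKM in DKO and 0.0131 FPKM in Ctrl.

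Most mitochondrial carriers sit in the inner membrane and swap metabolites, nucleotides, ions or cofactors between the matrix and the cytosol. Each is built from repeats of a similar membrane-spanning unit. The heart depends on a few of them at all times: the ADP/ATP carrier exports newly made ATP, the phosphate carrier supplies phosphate to ATP synthase, the carnitine carrier brings in fatty acids, and the aspartate/glutamate and oxoglutarate carriers move reducing power from the cytosol in the malate-aspartate shuttle.

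A 60-base stretch of the coding sequence shows how the ADP/ATP carriers are recognised and how close the paralogs are. The capitals are the 18 bases that encode the known signature of ADP/ATP carriers, with arginine codons followed by methionine codons. In GENCODE release M21 (build GRCm38), these codons were found in 3 of the 44 members searched. Slc25a31 lies on chromosome 3, Slc25a4 on chromosome 8 and Slc25a5 on chromosome X. The stretch runs from coding base 682 to 741 in Slc25a4 and Slc25a5 and from 721 to 780 in Slc25a31.
Slc25a4: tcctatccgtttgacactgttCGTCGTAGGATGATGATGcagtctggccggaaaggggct
Slc25a5: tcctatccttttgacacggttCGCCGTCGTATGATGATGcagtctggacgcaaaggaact
Slc25a31: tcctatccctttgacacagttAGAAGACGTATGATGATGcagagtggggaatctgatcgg
Slc25a4 and Slc25a5 differed at 9 of these 60 bases and at 3 of the 18 signature bases. Slc25a4 and Slc25a31 differed at 22 and 6.

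Promoters are shown for the 4 members that were lower in DKO and for Slc25a5, the paralog of Slc25a4 that was not called. Each line is the 250 bases before the annotated start, written 5′ to 3′ on the gene's strand, from RefSeq (GRCm38.p6, not the mm9 build of the deposited tables). The windows are chr8:46211063-46211312 on the minus strand, chr4:141623835-141624084 on the minus strand, chr6:6217174-6217423 on the minus strand, chr2:71367756-71368005 on the minus strand and chrX:36795347-36795596 on the plus strand.
Slc25a4: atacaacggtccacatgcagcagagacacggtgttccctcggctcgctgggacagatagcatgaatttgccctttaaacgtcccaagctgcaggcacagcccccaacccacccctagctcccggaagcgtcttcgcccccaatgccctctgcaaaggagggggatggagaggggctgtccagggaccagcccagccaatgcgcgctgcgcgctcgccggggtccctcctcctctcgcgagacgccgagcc
Slc25a34: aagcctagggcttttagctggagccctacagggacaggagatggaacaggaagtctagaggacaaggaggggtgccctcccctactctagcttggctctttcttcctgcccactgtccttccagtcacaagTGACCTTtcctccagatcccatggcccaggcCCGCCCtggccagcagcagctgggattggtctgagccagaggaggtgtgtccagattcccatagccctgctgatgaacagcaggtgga
Slc25a13: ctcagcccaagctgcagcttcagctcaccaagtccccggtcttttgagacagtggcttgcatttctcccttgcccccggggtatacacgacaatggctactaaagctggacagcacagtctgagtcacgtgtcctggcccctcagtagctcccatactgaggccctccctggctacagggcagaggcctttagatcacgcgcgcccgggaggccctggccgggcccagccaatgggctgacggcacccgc
Slc25a12: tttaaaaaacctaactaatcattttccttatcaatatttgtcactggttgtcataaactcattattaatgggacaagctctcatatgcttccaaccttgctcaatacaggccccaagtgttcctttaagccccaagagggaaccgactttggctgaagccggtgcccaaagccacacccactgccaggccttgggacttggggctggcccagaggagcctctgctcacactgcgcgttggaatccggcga
Slc25a5: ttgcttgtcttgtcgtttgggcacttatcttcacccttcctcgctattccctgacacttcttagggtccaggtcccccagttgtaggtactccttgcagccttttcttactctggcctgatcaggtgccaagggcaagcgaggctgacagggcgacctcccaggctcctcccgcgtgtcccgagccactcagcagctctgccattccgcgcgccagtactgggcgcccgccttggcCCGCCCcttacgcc
Capitals mark matches, on either strand, to 4 motifs: AACAAT of Sox factors, AAGGTCA of the nuclear receptors ERR, GCGCATGC of NRF1 and GGGCGG of Sp factors. Matches that overlap were each counted. RefSeq windows were at hand for 34 of the 44 members, 43 windows in all. AACAAT was in none of these 43 windows and in 9.42% of all 32851 windows of the table. AAGGTCA was in the window of 1 member, Slc25a34, 119 bases before the start, and in 4.08% of all windows. GCGCATGC was in 1 member window, that of Slc25a31, against 2.26% of all windows. GGGCGG was in 69.8% of the member windows and 32.7% of all windows, but in those of neither Slc25a4, Slc25a12 nor Slc25a13. These matches describe letters in the window and do not show that a factor binds.

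Of the 37 tested carriers, 4 were lower in DKO and none was higher by the Cuffdiff call. The lower genes were Slc25a34, Slc25a4, Slc25a13 and Slc25a12, at 71.7% to 80.9% of their Ctrl level. That is 10.8% of the tested carriers, where 3.06% of all tested genes were called lower and 4.30% higher. At an unadjusted p of at most 0.05, 11 carriers were lower and none higher, 29.7% of those tested against 7.76% of all tested genes that were lower at this p. The other 26 tested carriers were evenly divided, with 13 log2 ratios below 0 and 13 above 0. The median log2 ratio was -0.06 for the 37 carriers and -0.00 for all tested genes, and it lay between -0.48 and 0.35 for single carriers.

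**Figure D1:**
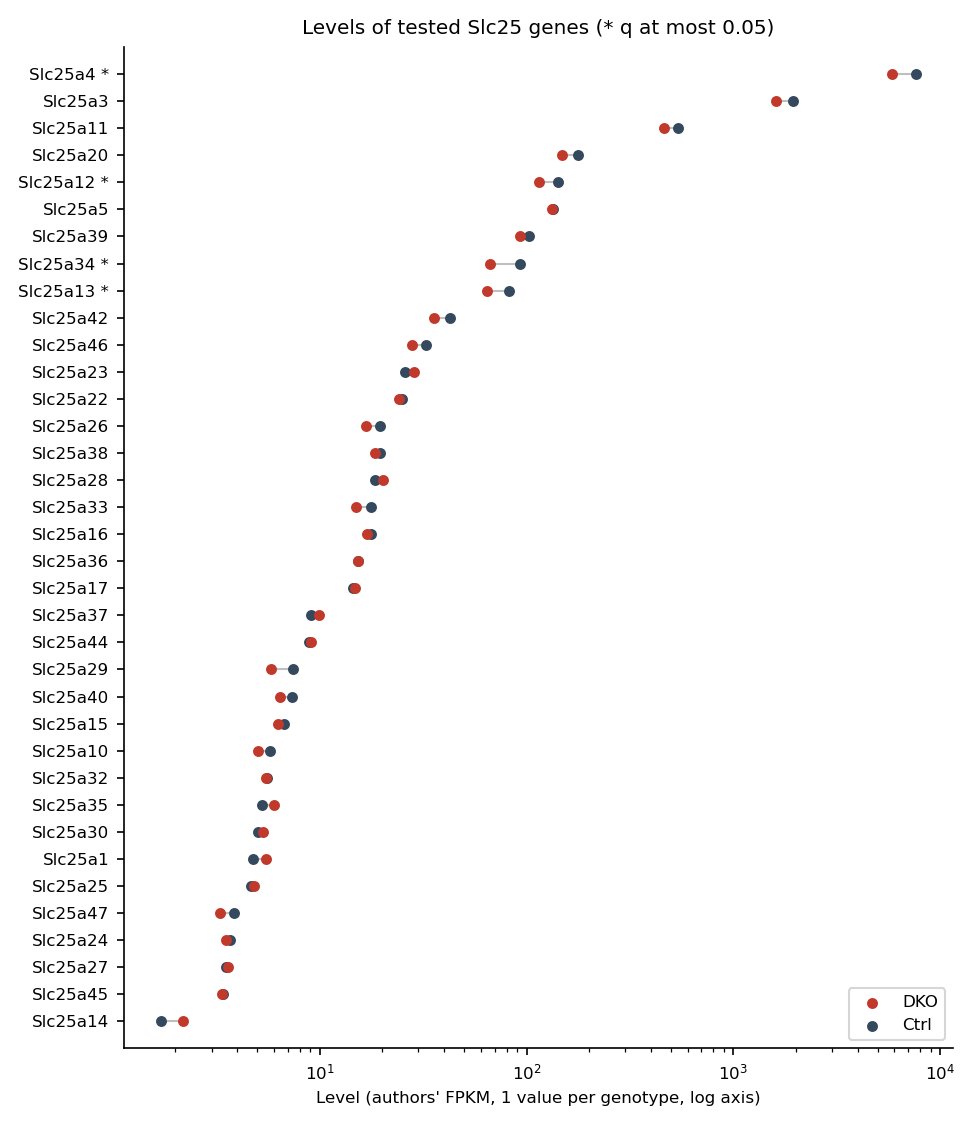
Level of tested Slc25 genes in DKO (red) and Ctrl (dark) ventricles, as the authors' FPKM on a log axis, 1 value per genotype and no error bars, ordered by Ctrl level. The 9 genes at the top lie at or left of their Ctrl point in DKO, and the asterisks mark the 4 genes with a q of at most 0.05.

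The lower carriers were among the most abundant ones. Slc25a4 held 66.0% of the summed carrier FPKM in DKO and 68.1% in Ctrl, and with the phosphate carrier gene Slc25a3 the share was 84.0% in DKO and 85.4% in Ctrl. The sum over all 44 members was 8902 FPKM in DKO and 11154 FPKM in Ctrl, or 79.8% of Ctrl, and Slc25a4 made up 76.4% of this difference. Without Slc25a4 the sum was 3031 FPKM in DKO and 3562 FPKM in Ctrl, or 85.1% of Ctrl. The log2 ratio was below 0 in all 9 carriers with a mean of at least 50 FPKM (median -0.27), and 4 of them were called lower. Among all 1636 genes at this level, 7.64% were called lower and the median was -0.07.

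In finer classes of level, the 4 calls all lay at a mean of 20 FPKM or more. The 6 carriers at a mean of 100 FPKM or more all had log2 ratios below 0, as had 74.1% of all tested genes of that class, with medians of -0.26 for the carriers and -0.10 for all genes, and 2 of the 6 carriers were called lower beside 9.46% of all genes. Between 20 and 100 FPKM, 6 of 7 carriers and 60.5% of all genes were below 0, with medians of -0.22 and -0.03, and 2 carriers were called lower beside 4.41% of all genes. Between 5 and 20 FPKM the carriers were divided evenly, 9 of 18, beside 50.3% of all genes, and none was called lower beside 2.23% of all genes. Below 5 FPKM, 3 of 6 carriers and 39.4% of all genes were below 0, and no carrier was called lower beside 1.67% of all genes. Abundant genes of any kind were thus more often below 0 in DKO, and the position of the abundant carriers is read against that.

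**Figure D2:**
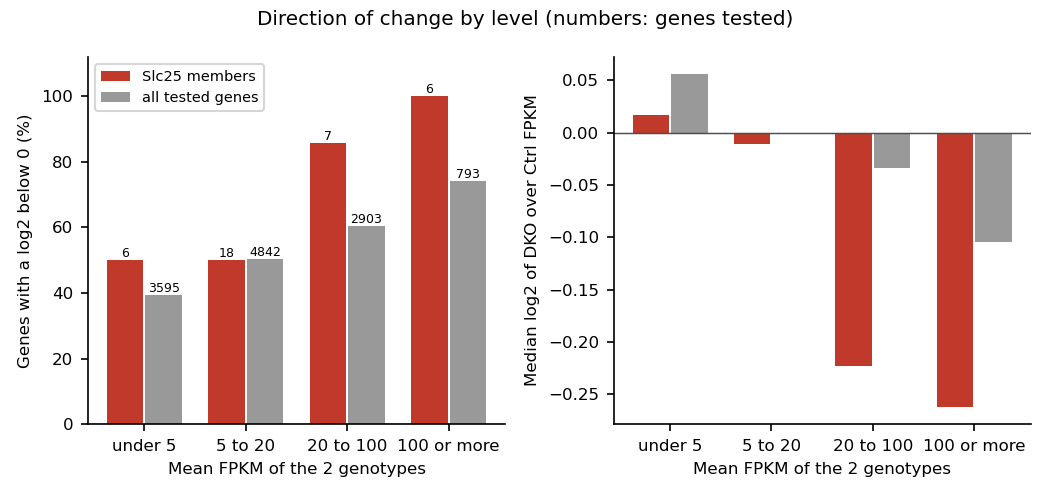
Share of genes with a log2 ratio (DKO over Ctrl) below 0 on the left and the median log2 ratio on the right, by mean FPKM, for the Slc25 carriers (red) and all tested genes (grey). Carriers at 20 FPKM or more lie mostly below 0, with medians of -0.22 and -0.26. The medians of the less abundant carriers are -0.01 at 5 to 20 FPKM and 0.02 below 5 FPKM.

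Cell type markers moved at the same time. Of 12 ventricular cardiomyocyte markers, none was called and 11 were below 0 in log2 ratio (median -0.21), at a summed level of 81259 FPKM in DKO and 95412 FPKM in Ctrl. Of 8 fibroblast markers, 6 were called higher, with a sum of 727 FPKM in DKO and 562 FPKM in Ctrl. Of 12 macrophage markers, none of them at 0, 9 were called higher, with a sum of 425 FPKM in DKO and 276 FPKM in Ctrl. Endothelial markers held no call among 7, with a median of -0.07. In ventricle as a whole, fewer cardiomyocytes and less carrier RNA in each cardiomyocyte cannot be told apart, and the part of these markers in the carrier values was not tested.

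The ADP/ATP carriers exchange cytosolic ADP for matrix ATP, and Slc25a4 encodes the form of heart and skeletal muscle. Slc25a4 was at 5871 FPKM in DKO and 7591 FPKM in Ctrl, or 77.3% of Ctrl. Its log2 ratio was -0.37 (q = 0.0340 in the authors' deposited table). It was the locus with the 12th highest level in DKO and the 10th highest in Ctrl. In the mm9 build it lies on chromosome 8 at 47292698 to 47296363. Slc25a5, the form found in most tissues, was at 132.9 FPKM in DKO and 133.6 FPKM in Ctrl, a log2 ratio of -0.01 (q = 0.987 in the authors' deposited table). Slc25a4 was thus 44.2 times as abundant as Slc25a5 in DKO and 56.8 times in Ctrl. The germ-line form Slc25a31 was at 0.432 FPKM in DKO and 0.658 FPKM in Ctrl and was not tested. The coding sequences of Slc25a4 and Slc25a5 were 77.4% identical, and their longest exact shared run was 20 bases.

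The carriers that supply phosphate and fuel to oxidative phosphorylation had similar ratios and did not pass the call. Slc25a3, the phosphate carrier, was at 1608 FPKM in DKO and 1935 FPKM in Ctrl, a log2 ratio of -0.27 (q = 0.118 in the authors' deposited table). Slc25a20, which exchanges acylcarnitines for carnitine, was at 148.4 FPKM in DKO and 177.6 FPKM in Ctrl, a log2 ratio of -0.26 (q = 0.0628 in the authors' deposited table). Slc25a11, the oxoglutarate/malate carrier, was at 461.9 FPKM in DKO and 539.7 FPKM in Ctrl, a log2 ratio of -0.22 (q = 0.148 in the authors' deposited table). All 3 were at 83.1% to 85.6% of Ctrl, beside 77.3% for Slc25a4, and the difference between these genes was not tested. Among the other carriers of di- and tricarboxylates, the dicarboxylate carrier gene Slc25a10 had a log2 ratio of -0.19 and the citrate carrier gene Slc25a1 one of 0.20, each at about 5 FPKM and not called.

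The aspartate/glutamate carriers, which bring glutamate and a proton into the matrix in exchange for aspartate and are stimulated by calcium, were both lower. Slc25a12, known as aralar, was at 115.2 FPKM in DKO and 142.4 FPKM in Ctrl, a log2 ratio of -0.31 (q = 0.0169 in the authors' deposited table). Slc25a13, known as citrin, was at 64.5 FPKM in DKO and 82.4 FPKM in Ctrl, a log2 ratio of -0.35 (q = 0.00631 in the authors' deposited table). Aralar RNA was 1.79 times as abundant as citrin RNA in DKO and 1.73 times in Ctrl, so their balance was nearly the same in both genotypes. Slc25a12 lies on chromosome 2 at 71110804 to 71205614 and Slc25a13 on chromosome 6 at 5991218 to 6167173 in mm9. Their coding sequences were 71.2% identical. The glutamate carrier gene Slc25a22 was at 24.1 FPKM in DKO and 24.96 FPKM in Ctrl, and its paralog Slc25a18 was below 0.5 FPKM and not tested.

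Slc25a34, whose substrate is not settled, had the smallest q-value and the lowest log2 ratio of the tested family. Its unadjusted Cuffdiff p of 5e-05 was the smallest value given to any gene, and many genes shared it. Among them were Alas1, Ucp2 and several fibroblast and macrophage markers, such as Col3a1, Lum, Lyz2 and Mpeg1. This p therefore does not set Slc25a34 apart from those genes. Slc25a34 was at 66.6 FPKM in DKO and 92.9 FPKM in Ctrl, a log2 ratio of -0.48 (q = 0.00158 in the authors' deposited table). It was the 1 carrier in the authors' subset of 642 genes past a fold of 1.3. It lies on chromosome 4 at 141174740 to 141179749 in mm9 and has 1 listed transcript. Slc25a35, the member most like it in coding sequence (59.0% identical), was at 6.01 FPKM in DKO and 5.28 FPKM in Ctrl and was not called. Of the others without a settled substrate, Slc25a46, a protein of the outer mitochondrial membrane, was at 27.8 FPKM in DKO and 32.5 FPKM in Ctrl, a log2 ratio of -0.22 (q = 0.142 in the authors' deposited table). Slc25a47 had a log2 ratio of -0.23 at 3.29 FPKM in DKO and 3.86 FPKM in Ctrl, and Slc25a45 one of -0.01.

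**Figure D3:**
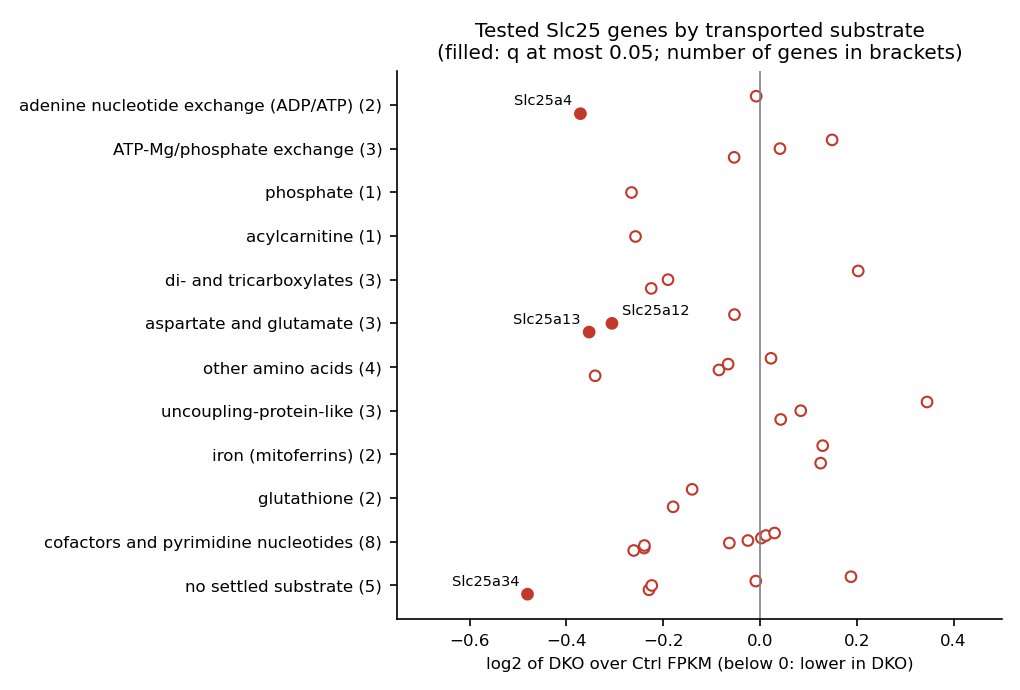
Log2 ratio of DKO over Ctrl FPKM for the 37 tested Slc25 genes, by transported substrate, with the number of genes in brackets and the called genes filled and named. The 3 aspartate and glutamate carriers lie below 0, and the uncoupling-protein-like carriers and mitoferrins lie above 0 with no gene called.

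Carriers of cofactors and nucleotides held no call among 8, with a median log2 ratio of -0.04 and a range of -0.26 to 0.03. The lowest was Slc25a42, which imports coenzyme A, at 35.6 FPKM in DKO and 42.6 FPKM in Ctrl, a log2 ratio of -0.26 (q = 0.0587 in the authors' deposited table). Slc25a33, a carrier of pyrimidine nucleotides, was at 15.0 FPKM in DKO and 17.7 FPKM in Ctrl, a log2 ratio of -0.24 (q = 0.248 in the authors' deposited table), while Slc25a36, its paralog for the same substrates, was at 15.4 FPKM in DKO and 15.3 FPKM in Ctrl. Slc25a26, which imports S-adenosylmethionine, had a log2 ratio of -0.24 and an unadjusted p of 0.195. Slc25a16 (-0.06), the folate and FAD carrier gene Slc25a32 (-0.02) and the peroxisomal carrier gene Slc25a17 (0.03) had log2 ratios close to 0.

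Among carriers of other amino acids, Slc25a29, a carrier of basic amino acids, was at 5.83 FPKM in DKO and 7.39 FPKM in Ctrl, a log2 ratio of -0.34 (q = 0.155 in the authors' deposited table). The ornithine carrier gene Slc25a15 had a log2 ratio of -0.08, the glycine carrier gene Slc25a38 one of -0.07 and the branched-chain amino acid carrier gene Slc25a44 one of 0.02. The glutathione carrier genes Slc25a39 and Slc25a40 had log2 ratios of -0.14 and -0.18. Slc25a39 was the more abundant of this pair, at 93.4 FPKM in DKO and 102.9 FPKM in Ctrl (q = 0.518 in the authors' deposited table). None of these genes was called.

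The mitoferrin and uncoupling-protein-like groups, of 2 and 3 genes, had all their log2 ratios above 0, again with no call. All these genes had a mean under 20 FPKM. Of all tested genes, 39.4% were below 0 at a mean under 5 FPKM and 50.3% at 5 to 20 FPKM. The mitoferrins, which import iron for heme and iron-sulfur clusters, had nearly equal ratios, 0.13 for both Slc25a28 and Slc25a37, at a summed level of 30.2 FPKM in DKO and 27.6 FPKM in Ctrl. The uncoupling-protein-like carriers Slc25a14, Slc25a30 and Slc25a27 had log2 ratios of 0.35, 0.08 and 0.04. Slc25a14 had the highest ratio of the tested family, at 2.18 FPKM in DKO and 1.72 FPKM in Ctrl (q = 0.521 in the authors' deposited table). The ATP-Mg/phosphate carriers, which adjust the adenine nucleotide pool of the matrix, were at log2 ratios of 0.15 (Slc25a23), 0.04 (Slc25a25) and -0.05 (Slc25a24).

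The 7 members that Cuffdiff did not test were at most at 0.658 FPKM. They were Slc25a31, Slc25a43, Slc25a18, Slc25a41, Slc25a2 and the oxodicarboxylate carrier gene Slc25a21, with Slc25a48 listed at 0 in both genotypes. The listed locus of Slc25a2 spans 912 kb and overlaps 24 other loci, so its value of 0.0880 FPKM in DKO and 0.0999 FPKM in Ctrl may not stand for the gene alone.

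Some members are close paralogs. Of 946 pairs of members, 12 were over 60% identical in coding sequence, while the median pair was 49.3% identical. Paralogs had like or unlike ratios. Slc25a12 and Slc25a13 were both lower, and the mitoferrins shared a log2 ratio of 0.13, but Slc25a4 and Slc25a5 stood at -0.37 and -0.01 and Slc25a34 and the less similar Slc25a35 at -0.48 and 0.19. The difference within these pairs was not tested. In mm9, 3 pairs of members lie within 100000 bp of each other. Slc25a41 and Slc25a23 are 2056 bp apart on chromosome 17, Slc25a29 and Slc25a47 are 15252 bp apart on chromosome 12 with Mir345 between them, and Slc25a43 and Slc25a5 are 18449 bp apart on chromosome X. Slc25a29 and Slc25a47 had log2 ratios of -0.34 and -0.23, and the other neighbours each include an untested gene.

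Single transcripts gave fewer calls than genes. The tables list 73 transcripts of the members, of which 55 were tested, and 1 was called, that of Slc25a34, where 1.12% of all tested transcripts were called lower. Start site groups gave 3 calls, all lower (Slc25a34, Slc25a12 and Slc25a13), among 43 tested, against 1.99% of all groups called lower. Coding sequences gave 1 lower call, that of Slc25a34, among 40 tested, against 1.66% of all coding sequences. Class j in these tables marks a model that shares a splice junction with an annotated transcript without matching it.

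Slc25a4 had 3 models. The annotated transcript of 1103 bases was at 4585 FPKM in DKO and 6005 FPKM in Ctrl (q = 0.0940 in the authors' deposited table). A class j model of 787 bases was at 507.5 FPKM in DKO and 1088 FPKM in Ctrl, and one of 1004 bases at 778.6 FPKM in DKO and 497.7 FPKM in Ctrl. Neither of the class j models was called, with unadjusted p-values of 0.0694 and 0.340 in the authors' deposited table. The annotated transcript held 78.1% of the gene in DKO and 79.1% in Ctrl, the model of 787 bases 8.64% in DKO and 14.3% in Ctrl, and the model of 1004 bases 13.3% in DKO and 6.56% in Ctrl.

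Among the other abundant carriers the mix of transcripts was close in both genotypes for some genes and less so for others. In Slc25a12 the annotated transcript and the class j model had log2 ratios of -0.31 and -0.30, and the j model held 59.0% of the gene in both genotypes. In Slc25a13, a pair of annotated transcripts that differ by 3 bases in length had log2 ratios of -0.43 and -0.07. The one of 3119 bases was at 50.1 FPKM in DKO and 67.3 FPKM in Ctrl (q = 0.0697 in the authors' deposited table), and the one of 3122 bases at 14.5 FPKM in DKO and 15.1 FPKM in Ctrl. Transcripts so alike share nearly all their reads, so this division is uncertain. In Slc25a3 all 4 models had log2 ratios between -0.30 and -0.22 without a call, and the largest, of 1053 bases, held 53.4% in DKO and 54.6% in Ctrl. In Slc25a20 the annotated transcript was at 100.5 FPKM in DKO and 130.6 FPKM in Ctrl (q = 0.0748 in the authors' deposited table). It held 67.7% of the gene in DKO and 73.5% in Ctrl, and a class j model of 1583 bases held 4.93% in DKO and 0.441% in Ctrl. A second start site group of the same gene was at 47.9 FPKM in DKO and 47.0 FPKM in Ctrl. In Slc25a11 the annotated transcript had a log2 ratio of -0.29 and the class j model one of -0.16. In Slc25a39 the main transcript, of 1662 bases, was at 66.6 FPKM in DKO and 68.5 FPKM in Ctrl, and a class j model of 1563 bases at 16.3 FPKM in DKO and 24.2 FPKM in Ctrl, neither called. The j model held 17.4% of the gene in DKO and 23.5% in Ctrl.

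**Figure D4:**
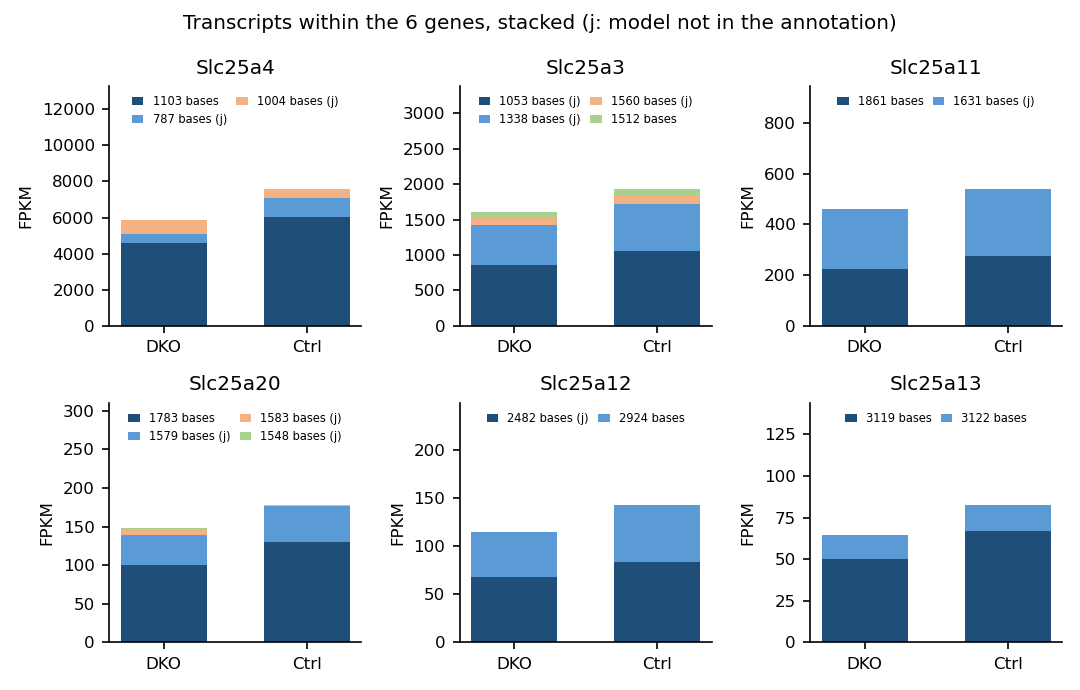
Transcripts of 6 abundant Slc25 genes as stacked bars of the authors' FPKM, DKO left of Ctrl, with transcript length in bases and j for models that the annotation does not hold. The stacks are shorter in DKO in all 6 genes, and the annotated transcript of Slc25a4 makes up 78.1% of the DKO stack and 79.1% of the Ctrl stack.

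Genes that work beside the carriers were taken as 8 lists with 78 tested genes, of which 62 had log2 ratios below 0, 5 were called lower and 1 higher. That is 79.5% below 0 and 6.41% called lower, where all tested genes had 51.1% and 3.06%. Of the 1636 tested genes at a mean of 50 FPKM or more, 1130 were below 0 and 7.64% were called lower. At a mean of 100 FPKM or more, 74.1% were below 0. Many partner genes are this abundant, and the lists were not matched by level. In the malate-aspartate shuttle the log2 ratio was below 0 for all 4 enzymes (median -0.28). The cytosolic aspartate aminotransferase gene Got1 was lower, at 537.6 FPKM in DKO and 662.7 FPKM in Ctrl (q = 0.0304 in the authors' deposited table). Of 17 genes of ATP synthase, 16 had log2 ratios below 0 and 2 were called lower. These were Atp5d, at 735 FPKM in DKO and 899 FPKM in Ctrl (q = 0.0236 in the authors' deposited table), and Atp5g3, at 3485 FPKM in DKO and 4305 FPKM in Ctrl (q = 0.0346 in the authors' deposited table).

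Heme and iron-sulfur genes had log2 ratios below 0 in 15 of 17 members, and 1 was called. Of all tested genes, 60.5% were below 0 and 4.41% called lower at a mean of 20 to 100 FPKM. At 100 FPKM or more these shares were 74.1% and 9.46%. Alas1, the first enzyme of heme synthesis, was at 92.3 FPKM in DKO and 122.4 FPKM in Ctrl (q = 0.00158 in the authors' deposited table). Among other inner membrane transporters 1 of 16 was lower, the ABC transporter gene Abcb8, at 40.7 FPKM in DKO and 50.1 FPKM in Ctrl (q = 0.0212 in the authors' deposited table). A single call in a list of 16 or 17 genes is near the shares called lower among all genes at 20 FPKM or more. The pyruvate carrier genes Brp44l and Brp44 had log2 ratios of -0.37 and -0.28 and were not called.

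The lists for the outer membrane channels, the carnitine shuttle and carrier import held no call. The channel genes Vdac1, Vdac3 and Vdac2 had log2 ratios of -0.18, -0.27 and -0.04. In the carnitine shuttle, the locus that joins Cpt1b with 2 other genes was at -0.12, Crat at -0.25 and Cpt2 at -0.19. The machinery that inserts carriers into the inner membrane had a median of -0.05 over 11 genes and a summed level of 671 FPKM in DKO and 675 FPKM in Ctrl. Its most abundant members were Timm8b at -0.08, Timm10 at 0.24 and Tomm22 at 0.02.

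Of the carrier genes with other symbols, Ucp2, an uncoupling protein gene that is well known in macrophages, was higher, at 31.4 FPKM in DKO and 15.7 FPKM in Ctrl, a log2 ratio of 1.00 (q = 0.00158 in the authors' deposited table). The macrophage markers given above had a summed level of 425 FPKM in DKO and 276 FPKM in Ctrl, and their part in the Ucp2 value was not tested. Ucp3, the uncoupling protein gene of muscle, was at 26.3 FPKM in DKO and 23.3 FPKM in Ctrl and was not called. Mtch1, Mtch2 and Mcart1 had log2 ratios of -0.10, -0.20 and -0.15, and Mcart6 was below 0.3 FPKM.

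**Figure D5:**
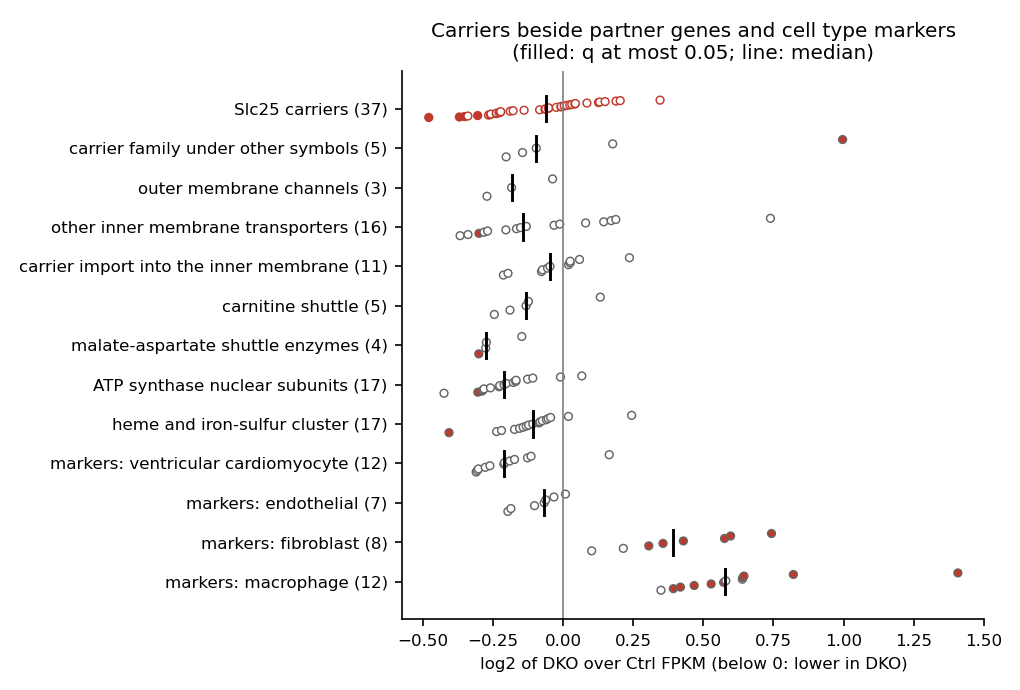
Log2 ratio of DKO over Ctrl FPKM for the Slc25 carriers, 8 lists of genes that work beside them and 4 marker lists, with called genes filled, medians as lines and the number of tested genes in brackets. Carrier and partner medians lie below 0. Marker medians are -0.21 for ventricular cardiomyocyte, -0.07 for endothelial, 0.39 for fibroblast and 0.58 for macrophage genes. Ucp2, at 1.00, is the highest of the carrier and partner genes, and the macrophage marker Mpeg1 lies above it at 1.41.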

How the data were processed

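RNA sequencing values (4 DKO and 4 Ctrl ventricles) came from 5 deposited tables. The authors used TopHat2 2.0.9, Cufflinks 2.1.1 and Cuffdiff 2.1.1 with the mouse build mm9, per the submitters' processing notes, with annotation and settings not given in the sources used here. Levels as deposited by the authors are FPKM, 1 per genotype, and the p-values and q-values are those of the authors' Cuffdiff comparison, per the file headers. The deposited log2 column sets Ctrl over DKO, so log2 ratios were recomputed as DKO over Ctrl; apart from the sign they differed by at most 7.43e-06 for the members. Recomputing the Benjamini-Hochberg step on all 12133 p-values gave the deposited q-values with differences of at most 5.18e-07 (the step was tested on simulated data). Positions are in mm9, counted from 1.

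No test across animals was run here. A single member enters the counts and sums but is not reported here by itself. Members, substrate groups and lists were chosen with earlier results of these data known; substrates were assigned from general knowledge. Full values are given for called members, those at an unadjusted p of at most 0.05 and the 8 with the highest Ctrl FPKM; called genes and, in lists with no call, the 3 most abundant are named among partner genes. Alternatives covered thresholds, FPKM filters, pseudocounts, rescaling and other feature levels. Coding identity is matching bases over the longer sequence after global alignment of the longest GENCODE M21 coding sequences. Python 3.11.15, pandas 2.3.3, numpy 2.4.6, statsmodels 0.14.6, Biopython 1.88 and matplotlib 3.10.9 were used.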

Additional observations from a re-analysis of the deposited data

How the results depend on the processing

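The 4 lower carriers became 2 at a q of at most 0.01, 11 at an unadjusted p of at most 0.05 and 1 with calls of at least 1.3-fold. The authors' subset past a fold of 1.3 holds 642 of the 12133 tested genes, higher and lower together, beside 1 of the 37 carriers. The share of all tested genes lower at the stricter q or at this fold was not worked out. The isoform table and the coding sequence table each gave 1 lower carrier. A higher carrier was found under none of the 10 alternatives run for this count. Stricter cut-offs and FPKM filters only remove calls, so they could not have given one. The unadjusted p and the isoform, start site and coding sequence levels could have. The median log2 ratio of the tested carriers was -0.22 for those at a mean of at least 10 FPKM, an alternative that leaves out the less abundant carriers. From the main isoform, Slc25a4 (-0.39), Slc25a12 (-0.30) and Slc25a13 (-0.43) kept their direction and were not called. The 13 members with full values kept their sign in all 52 alternatives run for them, but many of these could not have differed. A pseudocount cannot turn a sign, and the rescaling was smaller than each of their log2 ratios. For members with 1 transcript, the isoform and coding sequence values repeat the gene value. The summed level stayed below Ctrl, at ratios of 0.798 to 0.851. The sum over isoforms repeats the gene sum, and the rescaling was too small to turn it (0.800), so neither could have differed in direction. Leaving out Slc25a4 gave the ratio of 0.851. No paired analysis was possible because the tables hold 1 value per genotype, and for the same reason no replicate could be left out. Depth is not known, so the smallest difference that could be detected is not known either.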

Other observations

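Some carriers had transcripts that went separate ways without a call. In Slc25a22, the glutamate carrier gene, a transcript of 2546 bases was at 1.23 FPKM in DKO and 3.73 FPKM in Ctrl, while the main model of 2527 bases was at 22.1 FPKM in DKO and 20.6 FPKM in Ctrl. In Slc25a44 the transcript of 3580 bases was at 5.12 FPKM in DKO and 3.75 FPKM in Ctrl and the one of 3534 bases at 1.10 FPKM in DKO and 2.095 FPKM in Ctrl. The unadjusted Cuffdiff p-values of these tested transcripts lay between 0.190 and 0.528. In Slc25a20, a class j model of 1583 bases was at 7.32 FPKM in DKO and 0.783 FPKM in Ctrl, with an unadjusted p of 0.407 in the authors' deposited table. Ccdc109b, a gene of the calcium uniporter complex, was at 2.15 FPKM in DKO and 1.29 FPKM in Ctrl (q = 0.0773 in the authors' deposited table), while Ccdc109a, the uniporter pore gene, was at 8.48 FPKM in DKO and 9.77 FPKM in Ctrl. The genes in this paragraph were chosen after their values were seen.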
